A study of Mus musculus with 12 samples.

Results

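Liver gene expression of mice fed a diet with resveratrol was compared with that of mice fed a diet without it, over both carbohydrate sources of the study at once. The 6 arrays with resveratrol were chosen by sample title, 3 from the RS group and 3 from the DJ526 group, and the 6 arrays without it were 3 from the Ctrl group and 3 from the DJ group, so that all 12 arrays of the series entered. Each array held liver RNA of 1 female C57BL/6N mouse after 6 months on its diet. Ctrl mice received the Normal Formula Diet of the study, with corn starch and sucrose as its carbohydrate, and RS mice the same diet with added resveratrol. DJ mice received Dongjin rice in place of starch and sucrose, and DJ526 mice received 1 transgenic line of that rice, which makes resveratrol from a stilbene synthase gene of the peanut. DJ526 rice therefore differs from DJ rice by the transferred gene as well as by the resveratrol it holds, and resveratrol reached the mice as an added compound in one pair of groups and inside the grain in the other. The effect of resveratrol was the mean of the RS minus Ctrl and DJ526 minus DJ differences, each pair weighted equally. Whole cages were assigned to a diet, and which of the animals shared a cage is not given in the sources used here, so p-values measure the spread between these mice.

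Resveratrol is a stilbene polyphenol of grapes and peanuts. The liver conjugates it with sulfate through sulfotransferases and with glucuronic acid through UDP-glucuronosyltransferases. It is studied for actions on the NAD-dependent deacetylase SIRT1, on the energy sensor AMPK, on cyclic nucleotide phosphodiesterases, which degrade cAMP and cGMP, and on the aryl hydrocarbon receptor, which drives cytochrome P450 genes of family 1. The gene lists below follow those actions and the main functions of the liver.

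A level is the log2 signal of a probe minus log2 of the 75th percentile of its array, so that a level of 0 is the 75th percentile and a difference of 1 is 1 log2 unit. Of 39429 probes, 27283 were well above background on all 12 arrays by the flag of the scanner software, and these are described unless stated otherwise. Per array, 73.0% to 80.8% of spots passed that flag. Arrays lay on 3 slides. All Ctrl arrays shared slide 1 with DJ replicate 1. All DJ526 arrays shared slide 3 with RS replicate 3. The remaining DJ pair (replicates 2, 3) and RS pair (replicates 1, 2) filled slide 2. Only slide 2 therefore held arrays both with and without resveratrol, and these differed in carbohydrate source too. Slide and resveratrol therefore largely cannot be told apart. Alb, which encodes serum albumin and marks hepatocytes, had levels of 9.01 to 9.41 on the 12 arrays.

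No probe passed the test. limma called 0 of 39429 probes higher and 0 lower at an adjusted p under 0.05 (smallest adjusted p = 0.176). It also called 0 with slide as a fixed or a random block. An unpaired t-test of the 6 arrays with resveratrol against the 6 without, with Benjamini-Hochberg adjustment, called 0. The study's methods give an unpaired t-test, but no test of both resveratrol diets together. At an unadjusted p under 0.05, 1792 probes well above background were higher with resveratrol (6.57% of those tested) and 1065 were lower (3.9%), beside 6.73% and 3.31% of all 39429 probes. With the brightest probe of each of 15565 genes the shares were 5.9% higher and 4.21% lower, 10.1% in all. The differences were small. Of the 27283 probes, the median size of the difference was 0.10, the 90th percentile 0.33 and the 99th 0.70 on the log2 scale, beside a median SE of 0.11, and 38 probes were higher and 23 lower by more than 1.

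The balance of higher and lower probes depended on the scaling between arrays. Among the same probes at an unadjusted p under 0.05, 1440 were higher and 1210 lower after quantile normalization, 936 and 1835 after median scaling, 1801 and 1974 with normexp background correction, and 2900 and 535 in the deposited globally normalized table. The shift differed by brightness. With the probes in 5 bins of equal size by mean level, the median difference was 0.13 in the dimmest bin and -0.03 in the brightest, and after quantile normalization the medians were 0.012 and -0.0033. A direction is therefore given below as relative to the other probes, and quantile-normalized values stand beside the lists with more members on one side.

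**Figure D1:**
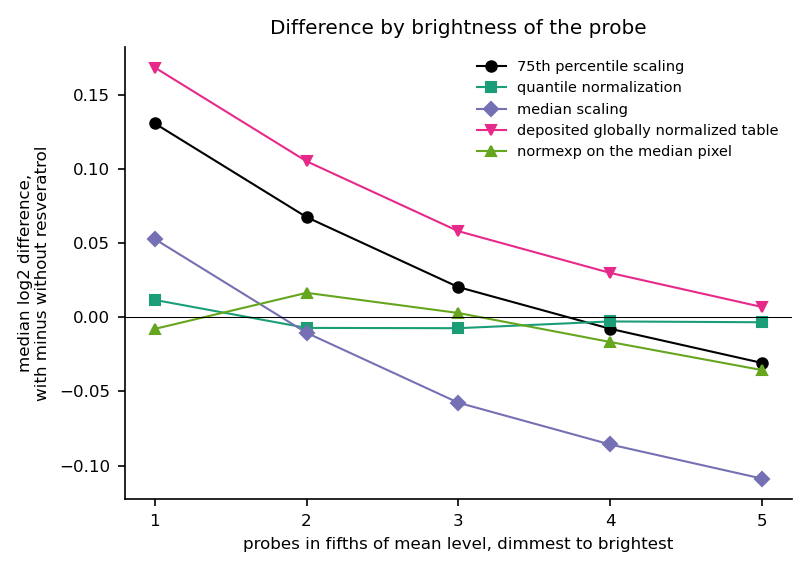
Median log2 difference (with minus without resveratrol, y axis) of probes well above background on all 12 arrays, in 5 bins of mean level from dimmest to brightest (x axis), under 5 ways of scaling; each point is the median of 5456 or 5457 probes. With 75th percentile scaling the medians run from 0.13 in the dimmest bin to -0.03 in the brightest, while quantile normalization holds all of them near 0.

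The pairs of groups, RS with Ctrl and DJ526 with DJ, were also set side by side. RS minus Ctrl and DJ526 minus DJ share no array, and across the 27283 probes their differences had a Pearson r of 0.14 and a Spearman rho of 0.18; probes are not independent replicates, and in neither pair did arrays with and without resveratrol share a slide. Both differences were above 0 for 8963 probes (32.9%) and below 0 for 6257 (22.9%), so 55.8% of the probes, and 54.6% of the 15565 genes by their brightest probe, had one direction in both. The SD of the differences was 0.25 for RS minus Ctrl and 0.29 for DJ526 minus DJ. The test of whether resveratrol acted differently on rice and on starch and sucrose called 0 probes (limma, smallest adjusted p = 0.112; 2403 of 39429 at an unadjusted p under 0.05, of which 1087 were more positive on rice). With slide as a block the same test called 17 probes, all more negative on rice, of which 1 was well above background on all arrays.

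**Figure D2:**
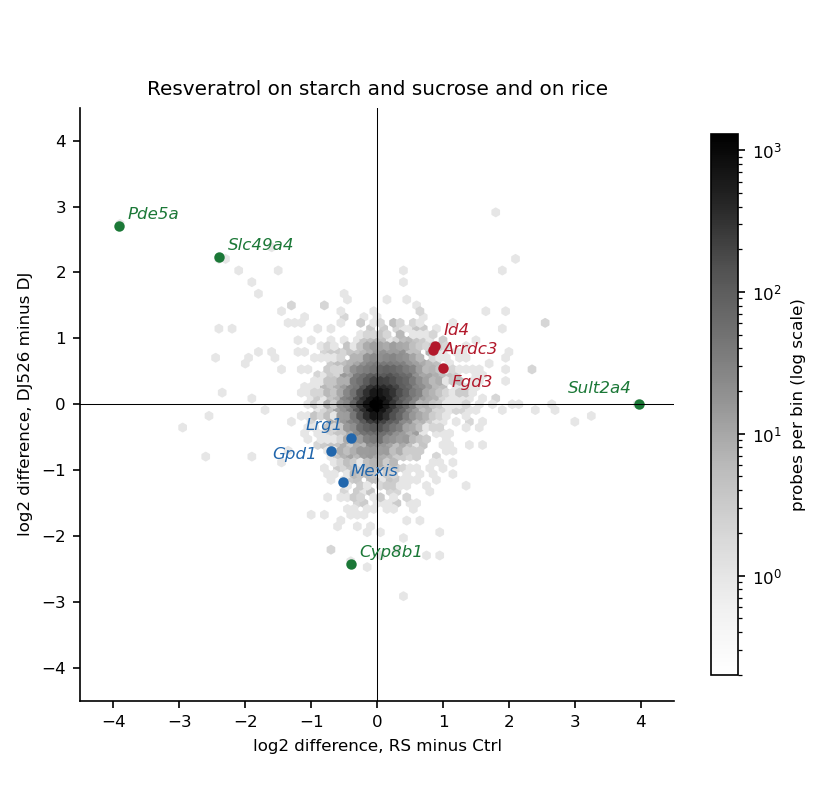
Log2 difference RS minus Ctrl (x axis) against DJ526 minus DJ (y axis) for 27283 probes, shaded by the number of probes per bin on a log scale. Blue genes were lower and red genes higher on all 6 arrays with resveratrol, such as Gpd1 at -0.71 in both pairs and Id4 at 0.88 and 0.89, whereas the green genes Sult2a4 (3.98 and 0.01) and Pde5a (-3.91 and 2.71) differed in the 2 pairs.

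A stricter description asks for all 6 arrays with resveratrol to lie on one side of all 6 without. Of 27283 probes, 114 were higher without overlap (0.418%) and 49 lower (0.18%), which named 62 and 36 genes. The lower probes were bright and their differences small (median level 2.90, median size 0.19), and the higher ones were dim and their differences larger (median level -3.57, median size 0.44), beside a median level of -1.48 for all probes. None of these probes was called.

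Gpd1 had the second lowest difference among the genes lower without overlap. It encodes the cytosolic glycerol-3-phosphate dehydrogenase, which makes the glycerol backbone of triglycerides from a glycolysis intermediate. Its level was 5.68, 5.14 and 5.20 in Ctrl, 5.49, 5.69 and 5.61 in DJ, 5.09, 4.72 and 4.10 in RS and 4.96, 4.81 and 4.90 in DJ526. The difference was -0.71 ± 0.15 (SE; limma, adjusted p = 0.245), that is 1.63-fold lower, and it was -0.71 in each pair of groups. On slide 2 alone RS minus DJ was -0.75, and with slide as a block the difference was -0.28. The lowest array with resveratrol was RS replicate 3, and leaving out any 1 mouse gave -0.82 to -0.57. A list of the study gives the RS and DJ identifiers the other way round from the sample titles. With these labels exchanged the difference was 0.26. By the titles, that exchanged fit compares the DJ and DJ526 groups with the Ctrl and RS groups, that is rice with starch and sucrose.

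Lrg1, Fgl1 and Itih4 were lower on all 6 arrays with resveratrol by their brightest probes. Dimmer probes of Fgl1 and Itih4 were lower too (-0.32 and -0.20), but on them the arms overlapped. Lrg1, a secreted leucine-rich glycoprotein of the acute phase, ran from 5.42 to 6.01 without resveratrol (median 5.53) and from 4.97 to 5.37 with it (median 5.17). Its difference was -0.45 ± 0.11 (SE; limma, adjusted p = 0.259), with -0.39 on starch and sucrose and -0.52 on rice, and it was -0.44 with slide as a block. Fgl1, a fibrinogen-like protein that the liver secretes, ran from 6.25 to 6.61 without and from 5.95 to 6.22 with resveratrol, a difference of -0.36 (limma, adjusted p = 0.239) that was -0.16 with slide as a block. Itih4, an acute-phase inhibitor heavy chain of the plasma, had among the most even values: 8.29 to 8.46 without and 8.12 to 8.22 with resveratrol. Its difference was -0.20 ± 0.05 (SE; limma, adjusted p = 0.257) and -0.16 with slide as a block. With the labels of RS and DJ exchanged, the differences of Lrg1, Fgl1 and Itih4 were 0.03, 0.05 and 0.0067.

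The list of 27 acute-phase and inflammation genes as a whole did not share this. Of its members 10 were higher and 17 lower (median difference -0.08, beside 0.01 for all 15565 genes measured by a probe well above background on all arrays, of which 52.2% were higher and 47.7% lower), 1 was lower without overlap and none was called. Fgb, the fibrinogen beta chain, was the next lowest by p, at -0.24 (adjusted p = 0.329), and its arms overlapped (8.60 to 8.76 without, 8.32 to 8.69 with). The median of the list was -0.13 on rice and 0.04 on starch and sucrose, and 0.06 with slide as a block.

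The other lower genes of the 10 lowest were of mixed function. Mexis, a noncoding RNA of cholesterol efflux, had the lowest difference of these genes at -0.85 (adjusted p = 0.176; -4.36 to -3.71 without, -5.49 to -4.38 with), but with slide as a block it was -0.12. Kdm4a, a histone H3 lysine demethylase, was 0.34 to 0.80 without and -0.11 to 0.31 with resveratrol, a difference of -0.37 in the main fit, with slide as a block and on slide 2 alone, but its other, dimmer probe was at -0.014. Rangap1, the GTPase activator of nuclear transport, had a difference of -0.33 and Alyref, an mRNA export adaptor, of -0.24. Ttyh2, a chloride channel family member, Ccr3, the eotaxin receptor, and the olfactory receptor Olfr9 had differences of -0.26, -0.31 and -0.31. A brighter Ttyh2 probe was at -0.15, and on it the arms overlapped. Ccr3 and Olfr9 were dim, with levels of -5.59 to -3.85.

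**Figure D3:**
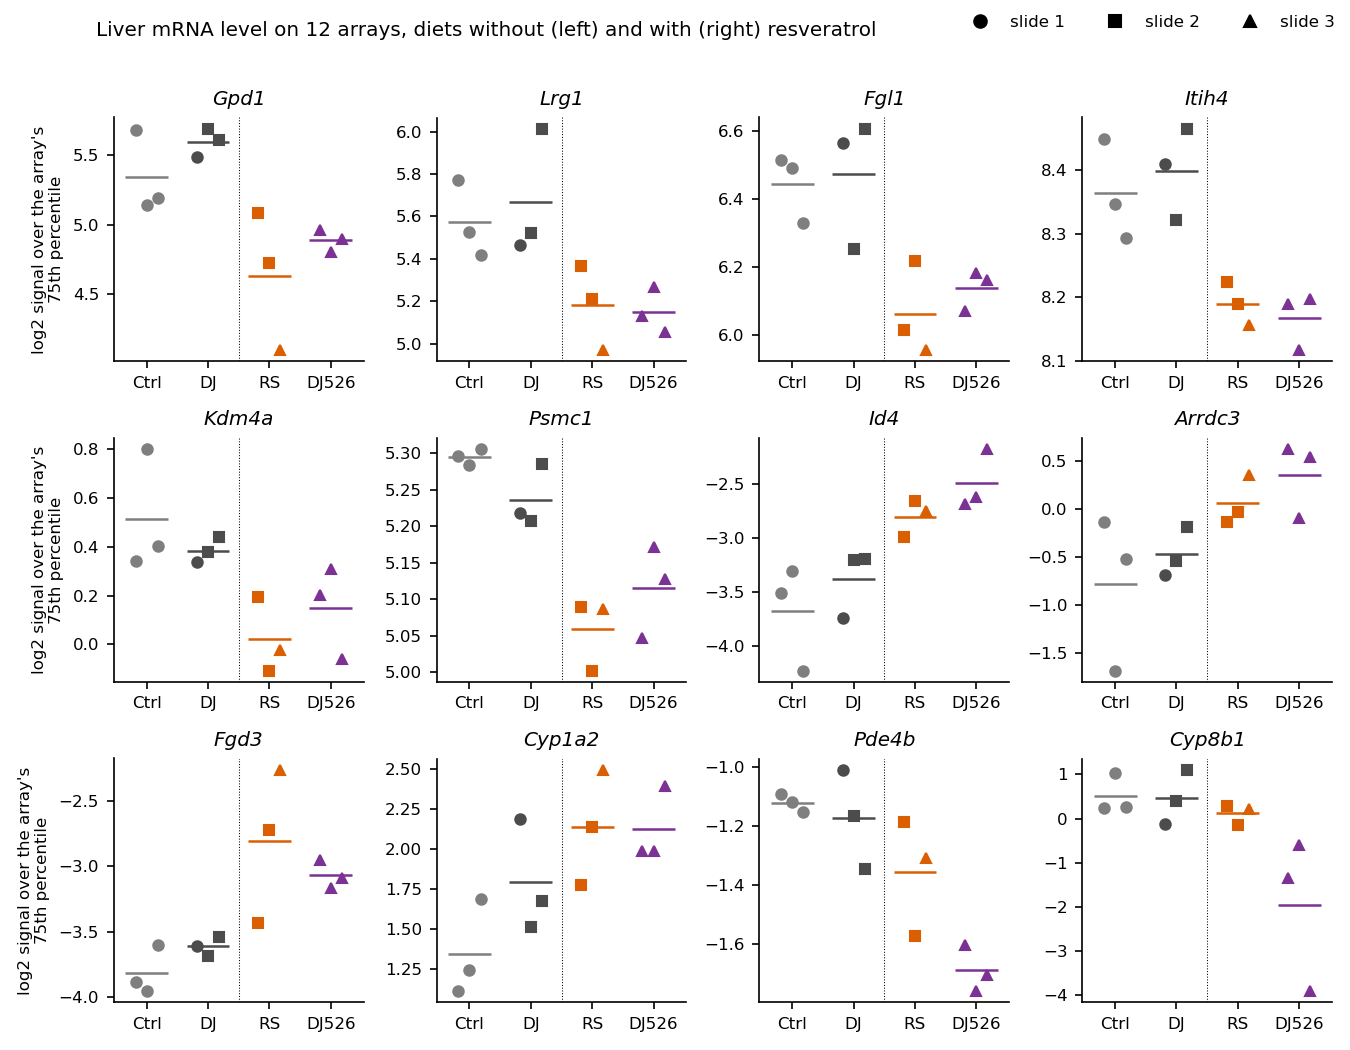
Level (log2 signal over the 75th percentile of the array, y axis) of 12 genes on the 12 arrays, by diet group; points are mice, the marker gives the slide, and horizontal lines are group means. Gpd1, Lrg1, Fgl1, Itih4, Kdm4a and Psmc1 lie lower and Id4, Arrdc3 and Fgd3 higher on all arrays with resveratrol, while Cyp1a2, Pde4b and Cyp8b1 overlap between the arms.

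Among the genes higher on all 6 arrays with resveratrol, Id4 and Arrdc3 had the largest differences. Id4, an inhibitor of basic helix-loop-helix transcription factors, had levels of -3.51, -3.30 and -4.23 in Ctrl and -3.75, -3.20 and -3.19 in DJ, against -2.99, -2.66 and -2.75 in RS and -2.69, -2.62 and -2.17 in DJ526. Its difference was 0.88 ± 0.18 (SE; limma, adjusted p = 0.226), which is 1.85-fold, with 0.88 on starch and sucrose and 0.89 on rice, and it was 0.47 with slide as a block. Arrdc3, an arrestin-domain protein that takes part in receptor trafficking and is known to respond to fasting, was at -1.69 to -0.14 without and -0.14 to 0.62 with resveratrol. Its difference was 0.83 ± 0.24 (SE; limma, adjusted p = 0.33), it was 0.33 with slide as a block, the highest array without resveratrol nearly met the lowest with it, and Ctrl replicate 2 lay far below the others. Without that mouse and the others in turn the difference ran from 0.61 to 1.00.

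The remaining 8 were dim probes, as was that of Id4 (mean level -3.09). Fgd3, a guanine nucleotide exchange factor, differed by 0.78 (adjusted p = 0.245) on one probe and by -0.02 on its other, and Sbf1, a phosphatase-related protein, by 0.67 on a dim probe and -0.10 on its brightest, so their probes disagree. Olfr139, Olfr1184, R3hdml, Muc4, Tmem163 and Nxph3 had differences of 0.61 to 0.80 on dim probes, and a second Muc4 probe, well above background on 11 arrays, was at -0.84. Olfactory receptors, which serve odour detection in the nose, were looked at after these values were seen: of 240 measured well above background on all arrays, 188 were higher and 52 lower (median 0.26), with a median of 0.14 after quantile normalization and -0.08 with slide as a block. Nxph3 itself was -0.06 with slide as a block. The part of probe brightness and slide in these values was not tested.

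The proteasome subunits Psmc1, Psmb5, Psma7 and Psmd7 stood among the genes that were lower without overlap, which by their brightest probe were 0.193% of 15565 genes. The proteasome degrades ubiquitin-tagged proteins. It consists of a core with the proteolytic beta subunits and alpha subunits and of a regulatory cap with ATPase (Psmc) and non-ATPase (Psmd) subunits. The family was chosen after its values were seen, so its counts are a description only. Of 38 subunits well above background on all arrays, 36 were lower and 2 higher with resveratrol (median -0.12, range -0.22 to 0.07), beside 47.7% of all genes lower; none was called. The median was -0.09 on starch and sucrose, -0.11 on rice, -0.09 after quantile normalization (4 higher, 34 lower), -0.19 after median scaling, -0.08 in the deposited table, -0.23 with slide as a block (35 lower) and -0.19 on slide 2 alone. With the labels of RS and DJ exchanged it was 0.01.

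Of the 38 subunits, 25 were lower in both pairs of groups. Some were uneven between the pairs, such as Psma5 (0.01 on starch and sucrose, -0.32 on rice) and Psmb6 (-0.24 and -0.05). The 4 subunits without overlap showed small steps. Psmc1, an ATPase of the cap, had levels of 5.30, 5.28 and 5.31 in Ctrl, 5.22, 5.21 and 5.28 in DJ, 5.09, 5.002 and 5.09 in RS and 5.05, 5.17 and 5.13 in DJ526, a difference of -0.18 ± 0.04 (SE). Psmb5, which carries the chymotrypsin-like site, ran from 6.08 to 6.22 without and from 5.91 to 6.02 with resveratrol (-0.15). Psma7 of the core ring differed by -0.17 and Psmd7 of the cap by -0.16. The immunoproteasome subunits Psmb8, Psmb9 and Psmb10 were at -0.03, -0.12 and 0.07, each above 0 on starch and sucrose (0.15, 0.06 and 0.26) and below 0 on rice (-0.21, -0.30 and -0.12). The promoter of Psmb5 and that of Itih4 are shown because these genes stood apart without overlap and each holds a short motif that is known for its group: the core of the antioxidant response element (TGACNNNGC, which NRF factors bind, known for proteasome genes) and the STAT motif (TTCNNNGAA, known for acute-phase genes). Both are from RefSeq on GRCm38.p6, 250 bases before to 50 after the start, 5′ to 3′ on the strand of the gene, with the motif, searched on both strands, in capitals. Psmb5 is at chr14:54617946-54618245 (minus strand) and Itih4 at chr14:30886226-30886525 (plus strand).

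Psmb5: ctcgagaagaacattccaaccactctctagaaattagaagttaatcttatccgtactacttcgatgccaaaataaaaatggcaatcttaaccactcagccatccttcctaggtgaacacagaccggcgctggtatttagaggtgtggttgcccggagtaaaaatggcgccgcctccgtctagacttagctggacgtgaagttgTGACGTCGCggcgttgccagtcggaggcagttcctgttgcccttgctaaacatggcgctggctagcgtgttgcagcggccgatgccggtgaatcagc

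Itih4: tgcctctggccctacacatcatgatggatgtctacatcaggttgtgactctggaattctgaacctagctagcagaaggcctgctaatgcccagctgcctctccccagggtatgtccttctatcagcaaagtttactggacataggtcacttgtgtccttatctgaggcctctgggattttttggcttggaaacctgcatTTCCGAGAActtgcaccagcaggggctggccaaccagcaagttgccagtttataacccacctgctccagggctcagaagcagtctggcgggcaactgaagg

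TGACNNNGC was found in 5 of the 31 proteasome genes with a promoter entry (16.1%) and in 14% of all 26994 genes with an entry (12.4% of their 32817 promoters). TTCNNNGAA was found in 7 of 24 acute-phase genes (29.2%) and in 9.55% of all genes (8.29% of promoters). The windows of Psma7, Psmc1 and Lrg1 did not hold the motif searched for their group. A match is a description of these letters only.

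**Figure D4:**
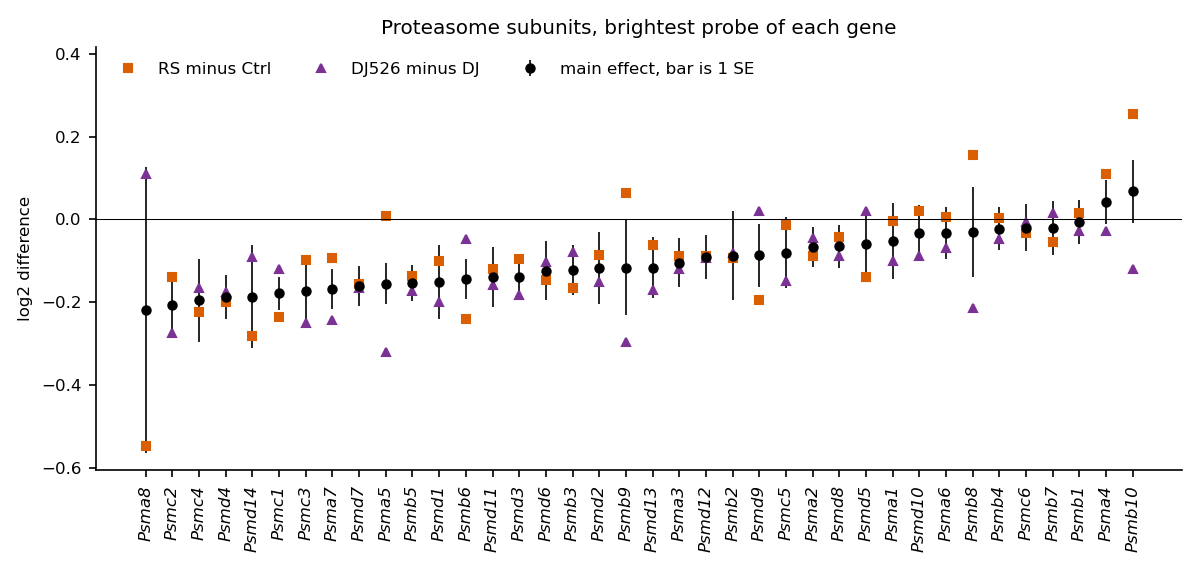
Log2 difference of the 38 proteasome subunits measured well above background on all arrays (x axis, ordered by the main effect): the main effect with 1 SE, RS minus Ctrl and DJ526 minus DJ. All but Psma4 and Psmb10 have a main effect below 0, and the 4 subunits without overlap between the arms lie between -0.18 and -0.15.

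Other bright housekeeping genes were slightly lower. Of 40 respiratory chain subunits, which carry electrons and make ATP in mitochondria, 36 were lower (median -0.05), and of 39 cytosolic ribosomal proteins, 34 were lower (median -0.06); none was called. The median of the brightest of the 5 bins of all probes was -0.03. After quantile normalization 27 of 40 and 24 of 39 were lower (both medians -0.02 or -0.03), and with slide as a block the ribosomal median was 0.05 while the respiratory one was -0.10. Ndufa1 of complex I was lower without overlap (5.82 to 5.95 without, 5.69 to 5.80 with; difference -0.12), Cox5a of complex IV was at -0.13, and Rpl19 of the ribosome was at -0.14.

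The enzymes that conjugate resveratrol did not move as one. Of 17 UDP-glucuronosyltransferase genes 14 were higher (median 0.07) and none was called; 15 of 17 were higher after quantile normalization and 13 with slide as a block, but 8 of 17 after median scaling (median -0.0034) and 4 of 17 with the labels of RS and DJ exchanged. Ugt2b1 had a difference of 0.35 ± 0.11 (SE; limma, adjusted p = 0.347), with levels of 0.79 to 1.71 without and 1.61 to 1.83 with resveratrol. Ugt2a1 was at -0.36. Of 18 sulfotransferase and sulfate supply genes 11 were higher and 7 lower (median 0.08), and the 2 pairs of groups differed in sign: the median was 0.36 on starch and sucrose and -0.19 on rice.

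The sulfotransferases of family 2A, which sulfate bile acids and steroids, had wide differences that came from some of the groups. Sult2a4 was at 1.07, -0.22 and -0.20 in Ctrl, 4.998, 3.81 and 3.78 in RS, 5.29, 5.02 and -0.84 in DJ and 2.45, 4.91 and 2.14 in DJ526. RS was thus high beside Ctrl on every array, whereas DJ replicates 1 and 2 were as high as any array with resveratrol and DJ replicate 3 was the lowest of all. The main effect was 1.99 ± 0.97 (SE; limma, adjusted p = 0.524), made of 3.98 on starch and sucrose and 0.01 on rice, and without 1 mouse it ran from 0.99 to 2.53. Sult2a1 and Sult2a6 had a similar pattern, with main effects of 1.56 and 1.15 (adjusted p = 0.58 and 0.584). These genes are near-identical copies, so their probes may share transcripts. Sult2a7 went the other way (-0.89), and Papss2, which makes the sulfate donor, was at 0.31 (0.58 and 0.05 in the 2 pairs).

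All 12 genes of the aryl hydrocarbon receptor list had a difference above 0 (median 0.12), 7 of them in both pairs of groups, and none was called. Cyp1a2, a cytochrome P450 of caffeine and arylamine metabolism, was at 1.11 to 2.19 without and 1.78 to 2.50 with resveratrol, a difference of 0.56 ± 0.16 (SE; limma, adjusted p = 0.323; 0.79 and 0.33 in the 2 pairs, 0.60 with slide as a block). Cyp1a1, its inducible neighbour, was at 0.57 on average but at 1.19 on starch and sucrose and -0.06 on rice. The receptor gene Ahr itself was at 0.11. The median of the list was 0.12 after quantile normalization (11 of 12 higher), 0.04 after median scaling (11 of 12), 0.07 with slide as a block (8 of 12) and 0.05 on slide 2 alone (7 of 12). With the labels of RS and DJ exchanged, by the titles rice against starch and sucrose, it was 0.10 (9 of 12). Of the other xenobiotic genes, Abcb1a, a drug efflux pump of the CAR and PXR list, was at 0.37 (adjusted p = 0.274), Cyp2d10 at -0.21 and Abcc4, an efflux pump of the Nrf2 list, at 0.51, with 0.92 on starch and sucrose and 0.11 on rice. Nrf2 targets were divided (16 higher, 17 lower, median -0.02), as were the 29 CAR and PXR genes (16 and 13, median 0.10). Gsta4, a glutathione transferase, was at 0.49, but DJ replicate 3 lay alone at -0.42 and without 1 mouse the value ran down to 0.28. Of 22 antioxidant enzymes 6 were higher and 16 lower (median -0.03; 11 and 11 after quantile normalization), with Glrx2 at -0.21 on its brightest probe and 0.28 on a dimmer one, and Sod1 at -0.13.

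The genes of sirtuins and NAD and those of AMPK were divided. Of 24 genes of sirtuins and NAD metabolism 9 were higher and 15 lower (median -0.03), and Sirt1 was at -0.02. The smallest p values were those of NAD-making enzymes: Nmrk1, the nicotinamide riboside kinase, at 0.41 (adjusted p = 0.387) and Nampt, the rate-limiting enzyme of NAD salvage, at 0.28 (adjusted p = 0.428). Both were mainly differences on rice (0.68 and 0.62) rather than on starch and sucrose (0.13 and -0.05). The test of that contrast was not called. Group means of Nmrk1 and Nampt were lowest in DJ (-0.41 and 1.30). Those of DJ526 (0.28 and 1.92) were not above those of Ctrl (0.46 and 2.01). Of 20 AMPK and PGC-1 genes 11 were higher and 9 lower (median 0.01), with Camkk2, an upstream kinase, at -0.20 and Prkaa2, a catalytic subunit, at 0.14.

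Phosphodiesterases held some of the smaller p values without a common direction (9 higher, 8 lower, median 0.03). Pde4b, a cAMP phosphodiesterase, was at -1.35 to -1.01 without and -1.76 to -1.19 with resveratrol, a difference of -0.38 ± 0.08 (SE; limma, adjusted p = 0.245), with -0.23 and -0.52 in the 2 pairs. Its DJ526 arrays, from -1.76 to -1.60, were the lowest. Pde3a was at -0.63 and lowest in DJ526 too (-5.66 to -4.997). A dimmer Pde3a probe, well above background on 7 arrays, was at 0.24, so its probes disagree. Pde5a, the cGMP phosphodiesterase measured by qRT-PCR in the study, split the arrays differently: it was at 0.96 to 1.24 on Ctrl replicates 1 and 2, DJ replicate 1 and all DJ526 arrays, at 0.06 on Ctrl replicate 3, and between -3.74 and -2.15 on all RS arrays and DJ replicates 2 and 3. Its main effect was therefore -0.60 ± 0.64 (SE; limma, adjusted p = 0.785), from -3.91 on starch and sucrose and 2.71 on rice. Slc49a4, which encodes a transporter of the same qRT-PCR set, had the same division of arrays, with -2.40 and 2.24. The DJ arrays that were low in both genes lay on slide 2, as did 2 of the 3 low RS arrays, while RS replicate 3 was low on slide 3.

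The other qRT-PCR genes varied, and none had a main effect that was called in the main fit. Spock1, a matrix proteoglycan, was at 0.32 (adjusted p = 0.459) on the probe measured well above background on all arrays and at -1.88 ± 0.41 (SE; limma, adjusted p = 0.245) on a dimmer probe that was well above background on 5 arrays, so its probes disagree. Sub1, a transcription coactivator, was at -0.08, Duoxa1 at -0.02, with Ctrl replicate 2 alone at -2.31, and the reference gene Gapdh at -0.05 (levels of 7.89 to 8.23). Dimmer Gapdh probes ranged from -0.21 to -0.07. The probe of Gpr31c, whose gene RefSeq names Gpr31b, was at -5.79 to -5.15 on the arrays without resveratrol and -6.30 to -4.86 in RS, but no DJ526 array had it well above background (-8.90, -8.54 and -8.69). Its main effect was -1.61 ± 0.24 (SE; limma, adjusted p = 0.176), and after quantile normalization it was 1 of 2 probes called. DJ was at least 3.07-fold above DJ526 (limma, adjusted p = 0.0227 for that pair). Csf3 was likewise well above background on all 3 DJ arrays and on no DJ526 array, at least 2.37-fold (adjusted p = 0.24). Ap3b2 was well above background on all 3 DJ526 arrays, 1 RS array, 1 DJ array and no Ctrl array. Its main effect was 1.64 ± 0.37 (SE; limma, adjusted p = 0.245), with 2.11 on starch and sucrose and 1.17 on rice and 1.77 with slide as a block. Against Ctrl, RS was at least 1.1-fold higher (limma, adjusted p = 0.501). Pnoc was well above background on 4 arrays.

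Lipid-making genes tended to be lower. Of 22 genes of de novo lipogenesis, the route from carbohydrate to fatty acid, 19 were lower (median -0.14), 10 of them in both pairs, and none was called. Agpat2, which builds phosphatidic acid, was at -0.37 ± 0.13 (SE; limma, adjusted p = 0.401), with 2.64 to 3.28 without and 2.21 to 2.97 with resveratrol. The elongase Elovl5 was at -0.35, the regulators Srebf1 and Mlxipl at -0.27 and -0.22, and Fasn and Acaca at -0.24 and -0.30, where the differences were -0.54 and -0.65 on starch and sucrose and 0.07 and 0.05 on rice. The median was -0.23 on starch and sucrose and -0.03 on rice. It stayed below 0 after quantile normalization (-0.13), on slide 2 (-0.36) and with slide as a block (-0.94). With the labels of RS and DJ exchanged, by the titles rice against starch and sucrose, it was -0.14 as well (16 of 22 lower). The summed level of the list overlapped, at 530 to 1174 with (median 889) and 547 to 1353 without resveratrol (median 883). In the fit with slide as a block the 24 cholesterol synthesis genes were also low (median -0.58, 23 lower), whereas their main median was 0.03 (14 higher, 10 lower) and that after median scaling -0.04. That fit rests on RS against DJ within slide 2, on DJ replicate 1 beside Ctrl within slide 1 and on RS replicate 3 beside DJ526 within slide 3.

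Fatty acid oxidation and PPAR-alpha genes were lower in 28 of 40 (median -0.10; -0.06 after quantile normalization, and 0.05 with slide as a block, where 17 were lower). Fabp1, the abundant fatty acid binding protein of the liver, was at -0.16 and the carnitine carrier Slc25a20 at -0.22. Glucose and insulin genes were mixed (12 higher, 16 lower, median -0.05), with Gpd1 as described and the transcription factor Foxo3 at 0.38 (adjusted p = 0.446).

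Bile acid and transport genes were divided as a list (8 higher, 15 lower, median -0.04) but held large single differences. Cyp8b1, the sterol 12-alpha hydroxylase that sets the proportion of cholic acid, was at 0.25, 1.03 and 0.27 in Ctrl, 0.30, -0.14 and 0.22 in RS, -0.13, 0.40 and 1.11 in DJ and -1.35, -0.60 and -3.91 in DJ526. Its difference was -1.41 ± 0.47 (SE; limma, adjusted p = 0.381), -0.39 on starch and sucrose and -2.42 on rice, and without 1 mouse it ran from -1.74 to -0.92. Slco1a1, an organic anion uptake transporter with higher expression in males, was at -1.36 (adjusted p = 0.397), lower in both pairs (-1.02 and -1.69), and -3.35 with slide as a block. The transporters Abcg5 and Abcg8, which together secrete sterols into bile, were at 0.28 and 0.35 (adjusted p of Abcg8 = 0.37). Abcg8 was higher in both pairs, by 0.45 and 0.25.

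Clock genes were higher in 12 of 18 (median 0.15; 0.16 after quantile normalization, 0.01 with slide as a block). In both pairs 11 were higher and 3 lower. Among the lower ones, the gene Clock was at -0.27 (-0.20 and -0.34) and Nfil3 at -0.30 (-0.32 and -0.29). Of genes well above background on 11 arrays, Arntl was at -0.43, Npas2 at -0.28 and Bhlhe41 at 0.69. Per3, a repressor of the clock, was at 0.55 (adjusted p = 0.449) in both pairs (0.45 and 0.65), and Per2 was at 0.40 (adjusted p = 0.343) through rice alone by value (0.01 and 0.79; the contrast was not called). Per2 was lowest in the DJ group, at -1.67 to -1.41. The output regulators Dbp and Ciart, which cycle strongly over the day, were at 0.51 and 0.46 with limma's unadjusted p = 0.328 for each.

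Cell cycle genes were higher in 19 of 22 (median 0.18, and 0.10 after quantile normalization with 16 higher), 14 of them in both pairs. With slide as a block the median was 0.77 (21 higher) and on slide 2 alone 0.36, and that of the lymphocyte markers, 0.27 in the main fit, was 1.56 and 0.44. The values 1.56 and 0.44 were those of Cd79a. For it DJ replicate 1, the only DJ array on slide 1, stood at -3.56, beside -5.70 to -5.14 on the other arrays without resveratrol. With RS and DJ exchanged the cell cycle median was 0.08 (18 higher) and the lymphocyte median 0.44 (9 of 9 higher). Tyms, which makes thymidylate, was at 0.26 and Pcna, the sliding clamp of replication, at 0.18 (adjusted p = 0.484 and 0.517). Interferon-stimulated genes were lower in 20 of 22 (median -0.09, and 18 lower after quantile normalization), but the median was 0.004 on starch and sucrose and -0.23 on rice. With the labels of RS and DJ exchanged, 19 of these 22 were lower (median -0.095). Oas1a and Ddx58 were at -0.34 and -0.17. Heat shock and unfolded protein genes were lower in 17 of 25 (median -0.06); Herpud1, which serves degradation at the endoplasmic reticulum, was at 0.28 and Xbp1 at -0.20. Of 19 p53 and senescence genes 7 were higher (median -0.05), with Gadd45a at 0.41 and Igfbp3 at 0.20. Growth hormone and sex-biased genes were higher in 13 and lower in 21 of 34 (median -0.07). None of these members was called.

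**Figure D5:**
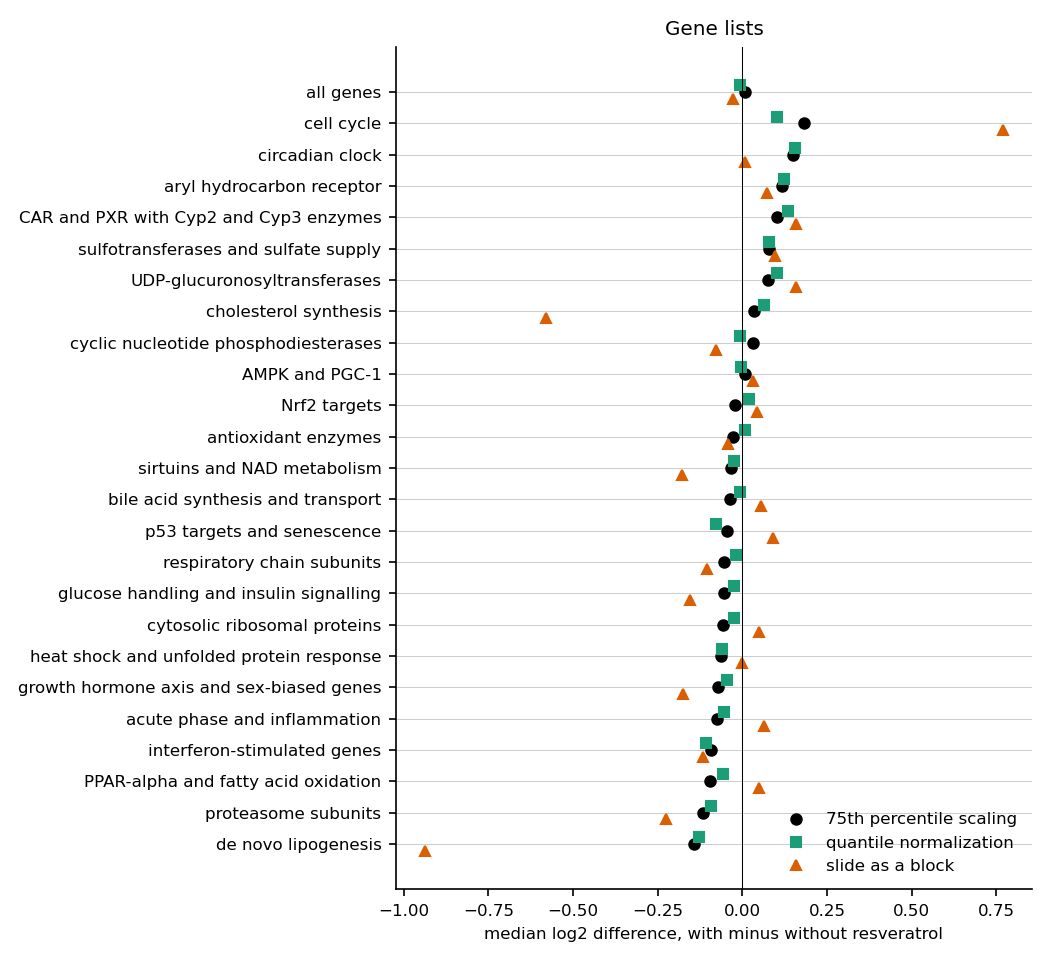
Median log2 difference (with minus without resveratrol, x axis) of the genes of each list that were well above background on all arrays, with 75th percentile scaling, after quantile normalization and with slide as a block. The proteasome (chosen after its values were seen) and lipogenesis lie below 0 and the aryl hydrocarbon receptor and UDP-glucuronosyltransferase lists above 0 in these 3 (the latter not after median scaling), whereas cholesterol synthesis, ribosomal and PPAR-alpha medians change sign with slide as a block.

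Markers of the other cells of the liver were examined beside these lists. In bulk tissue, fewer cells of a type and less RNA per cell cannot be told apart. Of 9 lymphocyte markers 8 were higher (median 0.27), among them the B cell genes Cd79a at 0.48 and Ms4a1 at 0.80 and the cytotoxic cell gene Nkg7 at 0.18 (adjusted p = 0.314), yet their summed level overlapped, at 34.8 to 48.2 with and 22.5 to 53.3 without resveratrol in units of the 75th percentile. Of 5 neutrophil markers 4 were lower (median -0.34; summed level 3.22 to 4.46 with and 3.38 to 11.4 without), with S100a8 at -0.76, high in Ctrl replicate 3 (0.97) and DJ replicate 3 (-0.06). Of 9 Kupffer cell and macrophage markers 7 were lower (median -0.17; 67.4 to 100 with and 67.1 to 154 without), with Cd5l at -0.30 and Vsig4 at -0.17. The summed levels of hepatocyte (2712 to 3053 with and 2678 to 3188 without), endothelial (50.9 to 57.6 and 43.9 to 57.4), stellate (64.7 to 83.2 and 59.5 to 72.8), cholangiocyte (1.35 to 2.12 and 1.48 to 2.97), erythroid (77.5 to 254 and 70.8 to 164), adipocyte (1.47 to 2.44 and 1.70 to 3.51) and exocrine pancreas markers (2.77 to 4.40 and 2.68 to 3.85) overlapped too. Krt19 of cholangiocytes stood at 0.52 on Ctrl replicate 2 and at -2.79 to -1.88 elsewhere. The part of these cells in the inflammation, interferon and cell cycle values was not tested.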

How the data were processed

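Liver RNA of 12 mice was hybridised to 1-colour Agilent Mouse GE 4x44K v2 arrays. The authors deposited scanner files with the processed signal intensity of each spot from Feature Extraction, and a globally normalized table of linear intensity, in which each array was multiplied by a factor of 0.959 to 1.084. Here, outlier spots and control spots were left out, spots of a probe averaged, and log2 intensity minus log2 of the array's 75th percentile was fitted with limma 3.58.1 in R 4.3.3 (group means, empirical Bayes with trend, Benjamini-Hochberg at 0.05). Groups followed the sample titles. A supplementary list gives RS and DJ identifiers exchanged, which was run as an alternative. If the titles hold, this alternative compares the rice groups with the starch and sucrose groups. RefSeq named 27508 probes and 3 more were named through the accessions of the study's primers; 11918 stayed unnamed. A list used the brightest probe of each gene.

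Named were every called probe, the 10 highest and 10 lowest differences without overlap, for each list its called members or otherwise the 2 of smallest p, and the qRT-PCR genes with Gapdh; other list members are named as background examples chosen after their values were seen. Members and lists were chosen with earlier results of these data known. For the normexp alternative (offset 50), spots with flagged background were left out, a change made after the first counts were seen; counts without overlap and list medians under other settings were also added after seeing the data. The code was tested on simulated data. Marker sums are linear intensity in units of the 75th percentile. 1 further gene that the rule picks is not reported here.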

Additional observations from a re-analysis of the deposited data

Results flagged for a closer look

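Within each arm of 6 arrays, 1 array stood far from the others for 12 of the named genes, among 192 tests of which chance flags about 1 in 20. Without resveratrol, DJ replicate 3 was low for Gsta4 (-0.423), Fabp1 (8.47) and Tyms (-3.87). DJ replicate 1 was high for Cd79a (-3.56) and Spock1 (-5.24). Ctrl replicate 2 was high for Krt19 (0.518), Kdm4a (0.801) and Duoxa1 (-2.31) and low for Arrdc3 (-1.69), and Ctrl replicate 1 was low for Papss2 (5.19). With resveratrol, RS replicate 2 was high for Dcn (6.29), and RS replicate 3 was low for Gpd1 (4.1).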

How the results depend on the processing

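No probe was called in the main effect with median scaling, normexp, the deposited table, filters, no variance trend, additive or 2-arm models, spatial blocks, slide as a fixed or random block, or slide 2 alone. Quantile normalization called 2 probes, and the methods' t-test called 3821 before adjustment, 2909 of them well above background on all 12 arrays, and 0 after it. With slide as a block the difference between the effects on rice and on starch and sucrose was called for 17 probes. Leaving out 1 mouse gave 0 to 1 called probes in the main effect, also among those well above background (1 without Ctrl replicate 1 and 1 without RS replicate 1), and 0 to 19 in the difference between diets (19 without DJ replicate 1, 1 each without Ctrl replicate 1 and DJ526 replicate 3). Probes without overlap numbered 163, and 266 in the deposited table, 39 with RS and DJ exchanged, and 187 to 645 without 1 mouse (645 without RS replicate 1, 383 without DJ replicate 1, 331 without DJ replicate 2, 327 without RS replicate 2, 280 without Ctrl replicate 1); leaving out an array can only add to this count, since fewer arrays have to stand apart. The cause of the other changes was not tested. Same-numbered mice of different groups had correlations of -0.35 to 0.41, so the numbers do not pair them; the replicate block called 0 probes and gave 3692 at an unadjusted p under 0.05, beside 3961. With slide as a random block (correlation 0.21) 1896 did. The arrays' number limits the precision.

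Under the setting "RS and DJ exchanged", sign changes were Abcb1a -0.44, Abcc4 -0.0868, Amy2a5 -0.0463, Camkk2 0.0151, Cela1 0.61, Cftr 0.0654, Csf3 0.70, Cyp2d10 0.0034, Elovl5 0.0915, Fgd3 -0.0288, Fgl1 0.0526, Gadd45a -0.21, Gapdh 0.0234, Gpd1 0.26, Gsta4 -0.23, Itih4 0.0067, Lrg1 0.0319, Mvk 0.11, Nampt -0.37, Ndufa1 0.001, Nmrk1 -0.59, Olfr9 0.0171, Papss2 -0.0112, Pde5a 0.78, Per2 -0.63, Per3 -0.22, Prkaa2 -0.0488, R3hdml -0.0384, Rangap1 0.0133, Sbf1 -0.18, Slc49a4 0.86, Sub1 0.0008, Ttyh2 0.0103, Tyms -0.012, Ugt2b1 -0.17. By the titles, the exchanged setting compares the rice groups with the starch and sucrose groups. Under the setting "quantile normalization", Alb was at 0, without a sign. Under the setting "slide as a block", sign changes were Cps1 -0.40, Hbb-bs -0.24, Lep -0.12, Nxph3 -0.0565, Pde5a 1.15, Slc49a4 1.38, Sod1 0.0567, Stab1 -0.0675, Stard4 -0.46. The additive model with slide as a block gave the same values. Under the setting "slide 2 alone", sign changes were Cps1 -0.11, Cyp1a1 -0.22, Fabp1 0.002, Hbb-bs -0.15, Krt19 0.0562, Lep -0.0261, Pecam1 0.0352, Pnoc 0.19, Sod1 0.0421, Stab1 -0.0655, Stard4 -0.38, Xbp1 0.0439. Under the setting "spatial blocks", sign changes were Dcn -0.0314, Hbb-bs -0.0297. Under the setting "deposited globally normalized table", sign changes were Duoxa1 0.0189. Under the setting "normexp on the median pixel", sign changes were Fabp1 0.0273, Hbb-bs -0.052, Sod1 0.0906. Under the setting "median scaling", sign changes were Hbb-bs -0.048. Those that changed sign when 1 mouse was left out ranged as follows: Duoxa1 -0.25 to 0.38, Hbb-bs -0.21 to 0.19, Krt19 -0.71 to 0.0337, Pde5a -1.06 to 0.0702, Slc49a4 -0.37 to 0.38.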

Other observations

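The adipocyte markers well above background on all arrays went in opposite directions: Fabp4, a fatty acid carrier, was at -0.44 (0.75 to 1.80 without and 0.52 to 1.28 with resveratrol; limma, adjusted p = 0.394) and Lep, which encodes leptin, at 0.59 (-5.94 to -5.61 without and -5.94 to -4.64 with; adjusted p = 0.388). With slide as a block Lep was at -0.12. Neither was called.

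The other genes picked from the lists had no adjusted p under 0.05 and overlapped between the arms. Of cholesterol synthesis and transport, Mvk was at -0.17 (0.08 on a dimmer probe) and Stard4 at 0.10. Of the cell type markers, Cps1 (hepatocyte) was at 0.31, Stab1 and Pecam1 (endothelium) at 0.13 and -0.12, Reln (stellate cell) at 0.11, Cftr (cholangiocyte) at -0.20, S100a9 (neutrophil) at -0.68, Hbb-bs and Slc4a1 (erythroid) at 0.03 and -0.25, and Amy2a5 and Cela1 (pancreas) at 0.16 and -0.40.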
